A study of Mus musculus with 60 samples.

Results

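Messenger RNA of 10 genes of the endoplasmic reticulum (ER) was followed in mouse duodenum organoids, cultured epithelium of the upper small intestine. They were Hspa5, Hsp90b1, Hyou1, Calr, Dnajb9, Sdf2l1, Pdia4, Creld2, Herpud1 and Xbp1, picked by name as ER chaperones and folding helpers together with the transcription factor Xbp1. All 10 were found among the 24905 genes that carried a value in every comparison. The rule itself used names and no measured values, but the group was proposed with earlier results of these data known. The labels described 60 samples in 20 groups of 3. In the degron arm (36 samples), organoids of the genotypes WT dTAG, HOM CDK2-dTAG and HOM CDK5-dTAG received DMSO, the solvent control, or 250 nM dTAG-13 for 6 or 24 h. dTAG-13 is a small molecule that brings a protein carrying the dTAG tag to a ubiquitin ligase, so that the tagged kinase is destroyed, and WT dTAG organoids show what the molecule does without a tagged kinase. In the conditional knockout arm (24 samples), organoids of the genotypes WT cKO and HOM CDK2 cKO received DMSO or 1 uM 4-hydroxytamoxifen (4-OHT) for 24 or 48 h. 4-OHT is a tamoxifen metabolite that activates Cre recombinases fused to a modified oestrogen receptor. The labels do not name a Cre driver and do not say whether WT cKO organoids carry one. The genotypes are written below as WT-dTAG, CDK2-dTAG, CDK5-dTAG, WT-cKO and CDK2-cKO.

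The ER is where secreted and membrane proteins fold, and its chaperones hold, refold or mark for disposal the chains that enter it. When misfolded chains build up, the unfolded protein response starts from sensors in the ER membrane: IRE1 splices the Xbp1 message into one that encodes an active transcription factor, ATF6 is cut to release another, and PERK slows translation and favours ATF4 and then CHOP. XBP1 and ATF6 mainly raise ER chaperones and disposal factors, while ATF4 and CHOP raise a separate set of stress genes. In the intestine this response is best known from secretory cells, the goblet and Paneth cells, where XBP1 is needed for normal function. A 3′ tag count of Xbp1 does not tell its spliced from its unspliced form.

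The values used here were the authors' own comparisons: 10 of treatment against DMSO in the same genotype at the same time, and 3 of DMSO at a later against an earlier time. Each gave a log2 fold change, a p-value and a false discovery rate (FDR) p-value per gene, and a gene was called at FDR p under 0.05. The error printed with a log2 fold change is the standard error (SE) implied by its deposited p-value, and intervals are 95% intervals from that SE. Levels per sample and library depth were not part of these values. Nothing in the labels says that replicates were separate cultures or animals, so p-values reach no further than these samples, 3 in each group. The implied SE of a gene hardly changed between comparisons, from 0.138 to 0.155 for Hspa5. So steady an SE is more like that of a spread pooled over more samples than the 2 groups compared, which no source states. Where numbers of genes are set beside the 10 genes, well measured genes are the 9526 with a median implied SE of at most 0.5 on the log2 scale. All 10 genes were among them. The median SE ran from 0.139 for Hspa5 through 0.188 for Hsp90b1 to 0.257 for Creld2, 0.286 for Sdf2l1 and 0.314 for Dnajb9, so the last 3 were the least precise. In CDK2-dTAG organoids at 6 h the SE of the 10 genes was 1.11 to 1.12 times that in WT-dTAG organoids at 6 h (median 1.12). A fit of 3 against 2 libraries in place of 3 against 3 gives the ratio 1.12, so 1 library may not have entered that comparison. The SE of Hspa5 was 0.155 there and in CDK2-dTAG DMSO at 24 against 6 h, beside 0.139 in CDK2-dTAG at 24 h. The comparisons with the larger SE share the CDK2-dTAG DMSO group at 6 h, so the library may belong to that group.

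Promoter sequence is shown first because it holds the elements that this pathway's transcription factors are known to read. RefSeq promoters on GRCm38.p6, each 300 bases long with 250 before the RefSeq start of the gene, were found for 9 of the 10 genes (the exception is Hyou1). Both strands were searched for the ER stress response element ERSE (CCAAT, then 9 bases, then CCACG), for ERSE-II (ATTGG, then 1 base, then CCACG), for the unfolded protein response element UPRE (TGACGTGG) and for an ATF4-type element, CARE (TGATGCAA). ERSE lay in 39 of 32851 promoters, 0.119%, and in 4 of the 9 promoters of the group, those of Hspa5, Creld2, Calr and Hsp90b1. ERSE-II lay in 12 promoters, 0.0365%, among them Herpud1. UPRE lay in 222, 0.676%, and in 0 of the 9. CARE lay in 294, 0.895%, among them Herpud1. The sequences below are written 5′ to 3′ along the gene, with ERSE or ERSE-II in capitals on whichever strand it was found. They are the Hspa5 promoter up to its start (chr2:34771840-34772089, plus strand), and the surroundings of the element in Creld2 (chr15:88819490-88819568, plus), Herpud1 (chr8:94386347-94386417, plus), Calr (chr8:84847045-84847123, minus) and Hsp90b1, which has 2 (chr10:86705608-86705686 and chr10:86705503-86705581, minus).
Hspa5: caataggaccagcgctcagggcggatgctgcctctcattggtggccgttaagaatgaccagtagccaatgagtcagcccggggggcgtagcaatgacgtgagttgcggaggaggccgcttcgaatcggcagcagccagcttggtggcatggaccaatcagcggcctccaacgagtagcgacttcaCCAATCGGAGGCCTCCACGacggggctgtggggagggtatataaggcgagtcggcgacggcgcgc
Creld2: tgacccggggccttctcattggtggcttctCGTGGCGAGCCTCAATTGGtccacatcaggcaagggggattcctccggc
Herpud1: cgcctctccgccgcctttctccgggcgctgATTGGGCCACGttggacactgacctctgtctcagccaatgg
Calr: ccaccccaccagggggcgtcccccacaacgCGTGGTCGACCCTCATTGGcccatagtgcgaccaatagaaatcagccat
Hsp90b1, far: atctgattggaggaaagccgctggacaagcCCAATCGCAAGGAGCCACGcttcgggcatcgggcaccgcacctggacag
Hsp90b1, near: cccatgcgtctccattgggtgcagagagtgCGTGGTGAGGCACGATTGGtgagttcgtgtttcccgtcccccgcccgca
The nearest base of the ERSE lay 47 bases before the RefSeq start in Hspa5, 108 in Creld2, 144 in Calr, and 194 and 89 in Hsp90b1. The ERSE-II of Herpud1 ended 42 bases and its CARE 105 bases before the start. The gene positions given further on are from GENCODE, which places the start of Hspa5 120 bases before that of RefSeq, so that its ERSE lies inside the gene as GENCODE draws it. In Creld2, Calr, Herpud1 and Hsp90b1 the elements lay before the start in both annotations. A match is a description of these letters, not evidence of binding, and the 4 promoters without one (Sdf2l1, Dnajb9, Pdia4 and Xbp1) lack only these letters in this window.

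**Figure D1:**
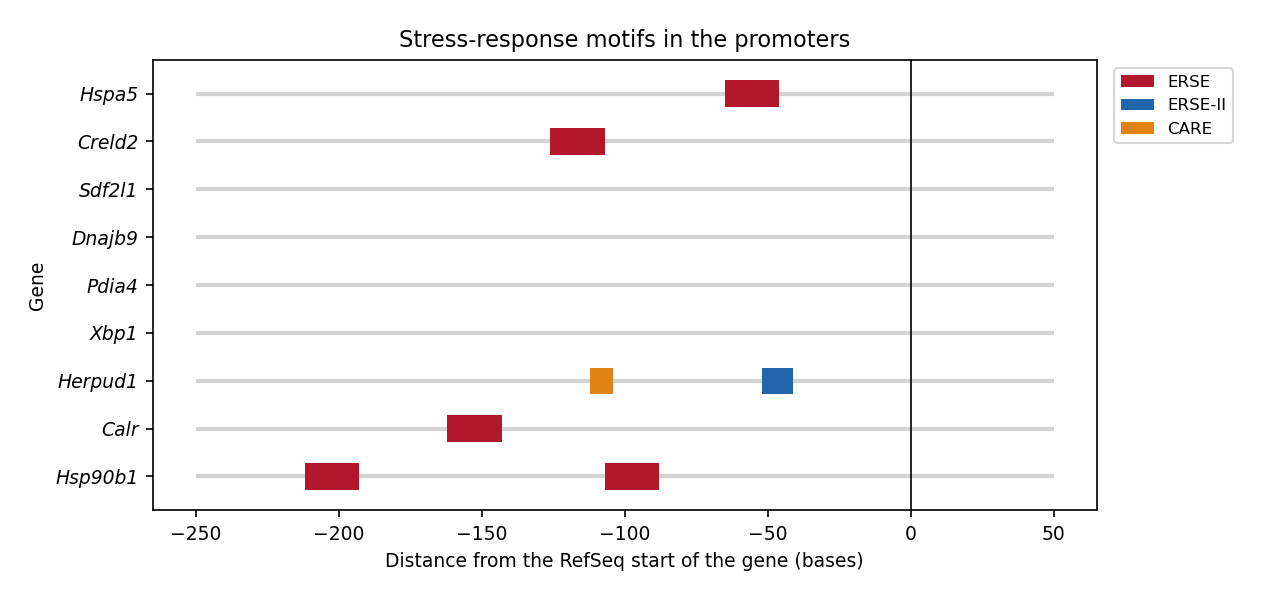
Matches to ERSE, ERSE-II and CARE in the promoters of the 9 genes with a RefSeq promoter, by distance in bases from the RefSeq start of the gene (vertical line; grey lines span the 300 bases searched). ERSE stands before the start in Hspa5, Creld2, Calr and, at 2 places, Hsp90b1, and Herpud1 holds ERSE-II and CARE.

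None of the 10 genes was called in any comparison. In the authors' deposited table, 0 of 130 values (10 genes in 13 comparisons) had FDR p under 0.05, and 2 had an unadjusted p under 0.05. The share of all genes with an unadjusted p under 0.05 was lowest, 0.799%, in WT-dTAG with dTAG-13 at 6 h. It was 0.952% in CDK5-dTAG at 6 h and 3.28% in WT-dTAG DMSO at 24 against 6 h, which held those 2 values. Each share is below the fraction of 0.05 that a calibrated test gives without any response. These shares take in all genes tested, also those with a large SE, and were not computed over well measured genes alone. Whether the deposited p-values are cautious therefore cannot be told from them. A lack of calls does not by itself show a lack of response. Few genes of any kind were called: 0% of genes tested in 9 comparisons, 0.0642% in WT-cKO with 4-OHT at 24 h, 0.0241% in CDK2-cKO with 4-OHT at 48 h, 0.0803% in WT-dTAG DMSO at 24 against 6 h and 0.0361% in CDK2-dTAG DMSO at 24 against 6 h. The intervals bounded the size of any response. For 127 of the 130 values the interval lay inside a 2-fold change in either direction, and for 88 inside a 1.5-fold change. The 3 that reached past 2-fold were Creld2 and Dnajb9 in CDK5-dTAG at 6 h and Dnajb9 in CDK2-dTAG at 6 h. Of the 130 log2 fold changes, 116 were within 0.25 of 0. The ratio of log2 fold change to SE was close to that of other genes. Over the 10 treatment comparisons its root mean square had a median of 0.80 over the 10 genes, from 0.39 for Hsp90b1 to 1.07 for Creld2, beside a median of 0.76 over well measured genes.

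**Figure D2:**
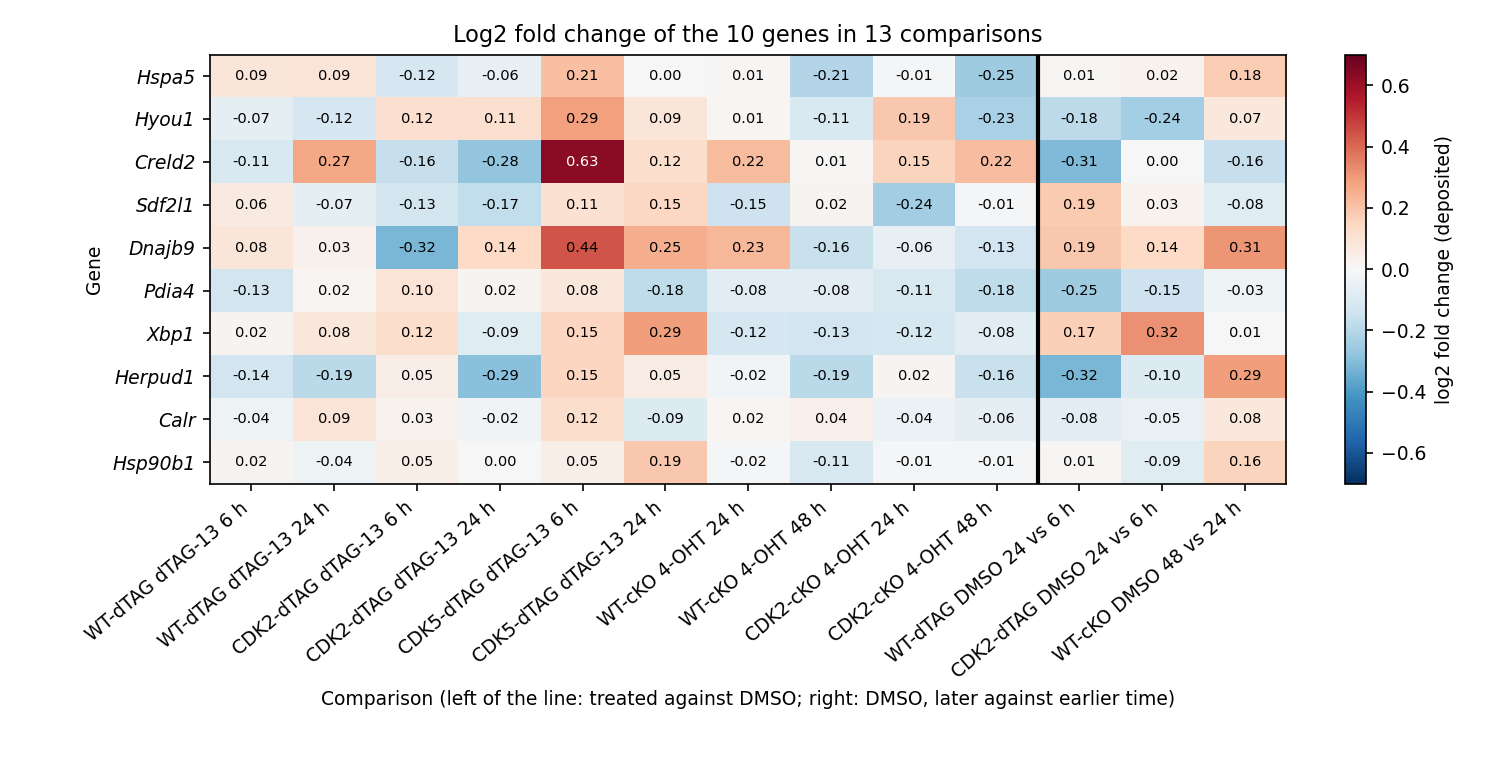
Deposited log2 fold change of each gene (rows) in each comparison (columns), 10 of treatment against DMSO to the left of the line and 3 between times of DMSO to the right. The column of CDK5-dTAG organoids at 6 h is above 0 in all 10 rows, from 0.05 for Hsp90b1 to 0.63 for Creld2, and no cell was called.

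Among the chaperones that bind unfolded chains in the ER, Hspa5 encodes BiP, the ER member of the Hsp70 family, which also keeps the stress sensors inactive. It lies on GRCm38 chromosome 2, 34771970 to 34777547, plus strand. In the degron arm the authors' deposited table listed Hspa5 at a log2 fold change of 0.09 in WT-dTAG at both times, -0.12 and -0.06 in CDK2-dTAG, and 0.21 and 0.00 in CDK5-dTAG at 6 and 24 h. In the knockout arm the authors' deposited table listed it at 0.01 and -0.21 in WT-cKO and -0.01 and -0.25 in CDK2-cKO at 24 and 48 h. It was lowest after 48 h of 4-OHT, in both genotypes, and its interval over all 13 comparisons never went below -0.53 or above 0.48. Hyou1, an Hsp110-type partner that exchanges the nucleotide of BiP (chromosome 9, 44379490 to 44392369, plus strand), ranged from -0.23 in CDK2-cKO at 48 h to 0.29 in CDK5-dTAG at 6 h in the authors' deposited table. Those are the same end points as for Hspa5.

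Hsp90b1 encodes GRP94, the ER form of Hsp90 (chromosome 10, 86690209 to 86705509, minus strand). Over the 10 treatments it ranged from -0.11 in WT-cKO at 48 h to 0.19 in CDK5-dTAG at 24 h in the authors' deposited table. Its exons are overlapped by 1810014B01Rik on the opposite strand and by Gm15344 on its own strand, and how reads shared with these were assigned is not known. Calr encodes calreticulin, a calcium-binding lectin that holds newly made glycoproteins (chromosome 8, 84841850 to 84846934, minus strand). Its treatment values in the authors' deposited table spanned -0.09 to 0.12, both in CDK5-dTAG organoids, the narrowest span of the 10 genes. A pseudogene, Calr-ps, lies on chromosome 2, and how reads shared with it were counted is not known.

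Of the helpers of these chaperones, Dnajb9, Sdf2l1 and Creld2 had the largest SEs of the 10 genes, while Pdia4 had a median SE of 0.165, close to that of Hyou1 (0.164). Dnajb9 (ERdj4), a J-domain partner of BiP (chromosome 12, 44205559 to 44210326, minus strand), ranged from -0.32 ± 0.349 (SE) in CDK2-dTAG at 6 h to 0.44 ± 0.316 (SE) in CDK5-dTAG at 6 h in the authors' deposited table. Sdf2l1, which works with ERdj3 and BiP (chromosome 16, 17130138 to 17132383, minus strand), ranged from -0.24 in CDK2-cKO at 24 h to 0.15 in CDK5-dTAG at 24 h in the authors' deposited table. Pdia4 (ERp72), a protein disulfide isomerase (chromosome 6, 47796141 to 47813430, minus strand), ranged from -0.18 in CDK5-dTAG at 24 h to 0.10 in CDK2-dTAG at 6 h in the authors' deposited table. Its value in CDK2-cKO at 48 h, -0.18, was as low. Creld2, a disulfide isomerase-like protein of the ER that is induced by ER stress (chromosome 15, 88819646 to 88826683, plus strand), spanned the widest range. In the authors' deposited table it ran from -0.28 in CDK2-dTAG at 24 h to 0.63 in CDK5-dTAG at 6 h.

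Herpud1 encodes a membrane protein that serves the disposal of misfolded proteins (chromosome 8, 94386438 to 94395377, plus strand). It ranged from -0.29 in CDK2-dTAG at 24 h to 0.15 in CDK5-dTAG at 6 h in the authors' deposited table. Xbp1 (chromosome 11, 5520659 to 5525893, plus strand) was highest in CDK5-dTAG organoids at 24 h, where the authors' deposited table listed 0.29 ± 0.151 (SE, p = 0.0513). Its lowest value was -0.13 in WT-cKO at 48 h in the authors' deposited table. Of the 10 genes, 6 had their highest treatment value in CDK5-dTAG organoids at 6 h and 3 had it there at 24 h, with Pdia4 the exception.

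The comparison of dTAG-13 with DMSO in CDK5-dTAG organoids asks how these messages respond when CDK5, a kinase studied mostly in neurons, is the tagged protein. At 6 h all 10 stood above 0, their median log2 fold change was 0.15, and 0 of 10 were called (background 0% of 24905 genes). Over well measured genes the median was -0.00 and 48.9% stood above 0. Creld2 had the largest value in the authors' deposited table, 0.63 ± 0.248 (SE; a 1.55-fold level, interval 0.15 to 1.12), with p = 0.0109 and FDR p = 1.00 over all genes. It was 1 of 10 genes with an unadjusted p under 0.05, where 0.952% of all genes had one. Next in the authors' deposited table came Dnajb9 at 0.44, Hyou1 at 0.29 ± 0.162 (SE, p = 0.0755) and Hspa5 at 0.21 ± 0.138 (SE, p = 0.126). Xbp1 and Herpud1 were both listed at 0.15 in the authors' deposited table, Calr at 0.12, Sdf2l1 at 0.11, Pdia4 at 0.08 and Hsp90b1 at 0.05. The intervals of all but Creld2 included 0. The 10 genes share these 6 libraries, so 10 values above 0 are not 10 independent observations.

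In WT-dTAG organoids at 6 h the same molecule left 5 of the 10 genes above 0 and 5 below, with a median of -0.01, from -0.14 for Herpud1 to 0.09 for Hspa5 in the authors' deposited table. The difference CDK5-dTAG minus WT-dTAG was above 0 for all 10 genes, with a median of 0.19, from 0.03 for Hsp90b1 to 0.74 for Creld2. It was called for 0 of 10 (0% of all genes). The Creld2 difference had an interval of 0.05 to 1.42 and, computed from the authors' p-values, p = 0.0361 and adjusted p = 0.998, and 1.06% of all genes had an unadjusted p under 0.05. The Hyou1 difference was 0.36 (interval -0.09 to 0.81) and that of Herpud1 0.29 (interval -0.12 to 0.70). For 8 of 10 genes the interval of the difference lay inside 2-fold, the exceptions being Creld2 and Dnajb9 (0.35, interval -0.52 to 1.23).

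At 24 h in CDK5-dTAG organoids, 8 of 10 genes stood above 0, with a median of 0.10, and 0 were called (0% of all genes). Creld2 was listed at 0.12 and Hspa5 at 0.00 in the authors' deposited table, while Xbp1 and Hsp90b1 were listed at 0.29 and 0.19. Pdia4 and Calr were below 0, at -0.18 and -0.09 in the authors' deposited table. The difference 24 h minus 6 h had a median of -0.19. It was lowest for Creld2 at -0.51 (interval -1.21 to 0.19), and 0 of 10 were called (0% of all genes) or had an unadjusted p under 0.05 (1.52% of all genes). WT-dTAG organoids at 24 h had a median of 0.02 with 6 of 10 genes above 0 and 0 called (0% of all genes), from -0.19 for Herpud1 to 0.27 for Creld2 in the authors' deposited table. Against these, 6 of 10 differences were above 0, with a median of 0.21 and 0 called (0% of all genes).

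**Figure D3:**
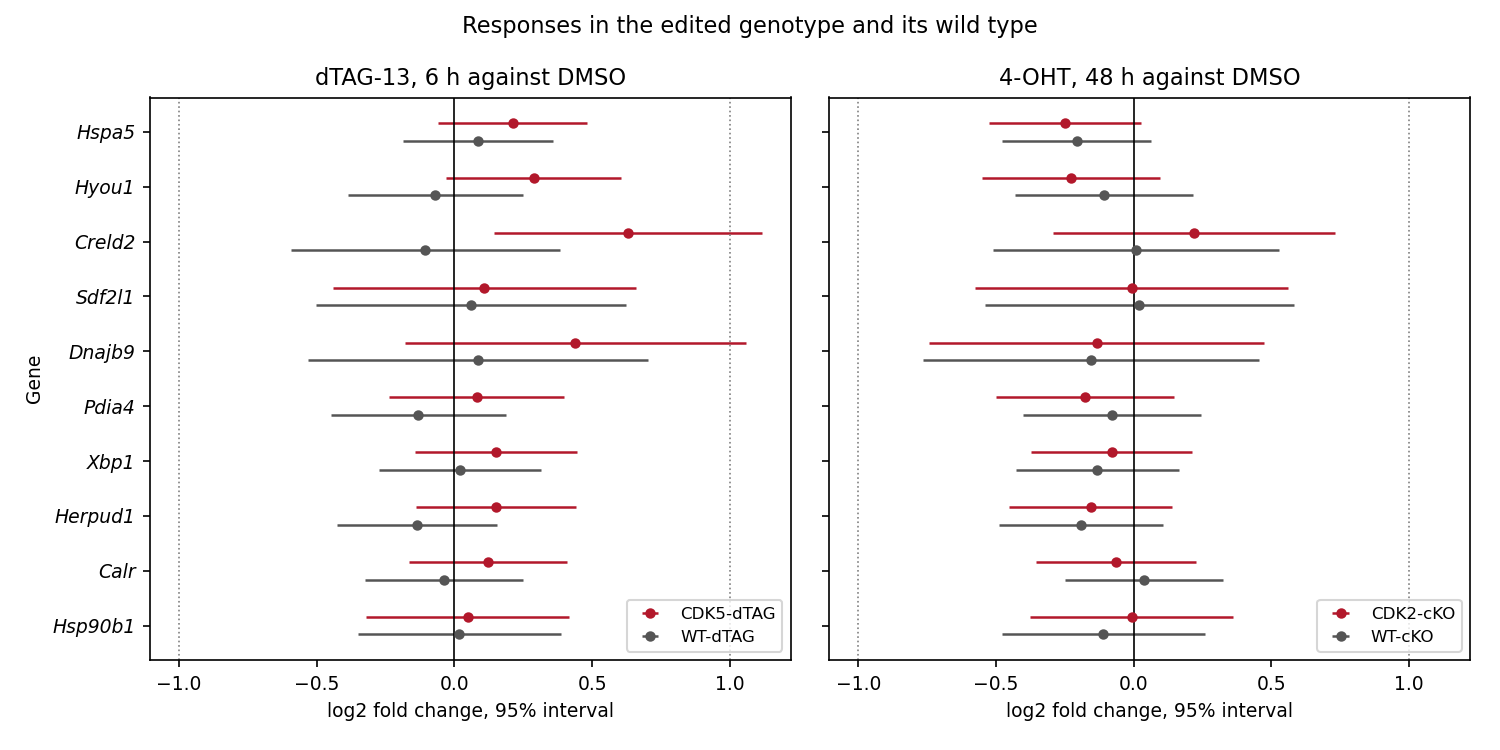
Log2 fold change (points) with its 95% interval (bars) for the 10 genes in CDK5-dTAG and WT-dTAG organoids after 6 h of dTAG-13 and in CDK2-cKO and WT-cKO organoids after 48 h of 4-OHT. Dotted lines mark a 2-fold change, and of the 40 intervals only those of Creld2 (up to 1.12) and Dnajb9 (up to 1.06) in CDK5-dTAG organoids reach past it.

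CDK2, a kinase of the cell cycle, was targeted in both arms, and in neither was any of the 10 genes called. In CDK2-dTAG organoids at 6 h, where 1 library may be missing from the fit, 6 of 10 genes stood above 0 with a median of 0.04 (-0.05 without Xbp1 and Herpud1), and 0 were called (0% of all genes). The lowest was Dnajb9 at -0.32, with an interval that reached just past a 2-fold lower level, and the highest Xbp1 at 0.12 in the authors' deposited table. By 24 h the median was -0.04, with 4 of 10 above 0 (3 of 10 once centred on well measured genes) and 0 called (0% of all genes). Herpud1 was lowest there, at -0.29 ± 0.152 (SE, p = 0.0549) in the authors' deposited table. It was also below 0 in WT-dTAG at 24 h, at -0.19 in the authors' deposited table, and CDK2-dTAG minus WT-dTAG came to -0.10 (interval -0.53 to 0.32). Creld2 differed more between the genotypes at 24 h, at -0.28 in CDK2-dTAG and 0.27 in WT-dTAG in the authors' deposited table, a difference of -0.55 (interval -1.25 to 0.16, adjusted p = 0.995). Over both times 0 of the 20 differences CDK2-dTAG minus WT-dTAG were called (0% of all genes at either time). CDK2-dTAG and CDK5-dTAG organoids are set against the same WT-dTAG values at each time.

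In CDK2-cKO organoids at 24 h the median of the 10 genes was -0.03, with 3 above 0 (5 once centred) and 0 called (0% of all genes). At 48 h 9 of 10 stood below 0 (7 once centred), with a median of -0.11 and 0 called (0.0241% of all genes). The lowest were Hspa5 at -0.25 ± 0.141 (SE, p = 0.0766) and Hyou1 at -0.23, and Creld2 alone stood above 0, at 0.22, in the authors' deposited table. WT-cKO organoids at 48 h had the same median, -0.11, with 7 of 10 below 0 and 0 called (0% of all genes). The lowest there were Hspa5 at -0.21 and Herpud1 at -0.19 in the authors' deposited table. The difference CDK2-cKO minus WT-cKO at 48 h accordingly had a median of -0.00. It ran from -0.12 for Hyou1 to 0.21 for Creld2, all 10 intervals lay inside 2-fold, and 0 were called (0% of all genes). At 24 h the WT-cKO median was -0.00, with Dnajb9 at 0.23 and Creld2 at 0.22 the highest in the authors' deposited table, 0 called (0.0642% of all genes), and the difference between genotypes had a median of -0.03 with 0 called (0% of all genes). The response did not differ by time past the test in either genotype: the median of 48 h minus 24 h was -0.04 in CDK2-cKO, with Hyou1 lowest at -0.41 (interval -0.87 to 0.04), and -0.11 in WT-cKO, with 0 called in each (0% of all genes). Over the degron and knockout arms together, 0 of 60 differences between genotypes and 0 of 50 between times were called, and 52 of 60 and 44 of 50 had intervals inside 2-fold.

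The transcripts of the targeted kinases were no check of protein loss in the degron arm. Cdk2 was listed at 0.06 and 0.16 in CDK2-dTAG at 6 and 24 h, and Cdk5 at -0.39 and -0.30 in CDK5-dTAG, in the authors' deposited table. In the knockout arm the authors' deposited table listed Cdk2 at -0.35 and -0.64 in CDK2-cKO and at 0.26 and -0.53 in WT-cKO at 24 and 48 h. The Cdk2 difference CDK2-cKO minus WT-cKO was -0.61 at 24 h (interval -1.20 to -0.02) and -0.11 at 48 h (interval -0.72 to 0.49). Computed from the authors' p-values, the one at 24 h had p = 0.0418 and adjusted p = 0.995. Neither gene was called. The deleted part is not given in the sources used, so whether the 3′ tag lies outside it is not known. The comparisons above are therefore named by genotype and treatment.

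The comparisons between times of DMSO show the change with time in culture without either drug. Of 21 genes of the PERK, ATF4 and CHOP branch, 4 rose past the test in WT-dTAG organoids, 1 in CDK2-dTAG and 0 in WT-cKO, while none of the 10 chaperone genes was called in any of the 3. PERK branch is the name of a gene list here, and whether PERK or ER stress moved these genes was not tested. In WT-dTAG organoids at 24 against 6 h of DMSO, the 10 genes had a median of -0.04 with 5 above 0, and 0 were called (0.0803% of all genes). Herpud1 was lowest, at -0.32 ± 0.150 (SE, p = 0.0334, FDR p = 0.989), and Creld2 was listed at -0.31 and Pdia4 at -0.25 in the authors' deposited table. Herpud1 was 1 of 10 with an unadjusted p under 0.05, beside 3.28% of all genes. Of the 21 PERK branch genes, all 21 stood above 0 with a median of 0.64, and 4 rose past the test (0.0763% of all genes were called higher). They were Trib3, a pseudokinase induced by ATF4 and CHOP, at 1.64 (FDR p = 2.83e-08), Ddit3, which encodes CHOP, at 1.63 (FDR p = 2.22e-04), Atf3, a stress-induced transcription factor, at 1.69 (FDR p = 0.0126), and Stc2, a secreted glycoprotein, at 1.00 (FDR p = 0.0143), in the authors' deposited table. Stc2 was named because it was called.

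In CDK2-dTAG organoids over the same times, where 1 library may be missing from the fit, the 10 genes had a median of -0.02, with 5 above 0 and 0 called (0.0361% of all genes). Xbp1 was highest, at 0.32 ± 0.168 (SE, p = 0.0578) in the authors' deposited table. Of the 21 PERK branch genes 20 stood above 0, with a median of 0.53, and 1 rose past the test (0.0321% of all genes were called higher), Atf3 at 1.83 (FDR p = 0.0326) in the authors' deposited table. In WT-cKO organoids at 48 against 24 h of DMSO, 7 of the 10 genes stood above 0, with a median of 0.07 and 0 called (0% of all genes), led by Dnajb9 at 0.31 and Herpud1 at 0.29 ± 0.153 (SE, p = 0.0564) in the authors' deposited table. The PERK branch there had a median of 0.10 with 15 of 21 above 0 and 0 called. The authors' deposited table listed Atf3 at 0.95, Ddit3 at 0.86, Stc2 at 0.47 and Trib3 at 0.08, each at FDR p = 0.999.

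With 4-OHT at 48 h the genes listed as the PERK branch stood on the other side of 0, and the part of PERK in this was not tested. In CDK2-cKO organoids 2 of its 21 genes were above 0, the median was -0.41 and 2 fell past the test (0.0201% of all genes were called lower). These were Trib3 at -1.27 (FDR p = 1.79e-04) and Ddit3 at -1.45 (FDR p = 0.00358) in the authors' deposited table. In WT-cKO organoids 2 of 21 were above 0, the median was -0.25 and 0 were called, with Ddit3 listed at -1.04 and Trib3 at -0.59 in the authors' deposited table. The difference CDK2-cKO minus WT-cKO was -0.68 for Trib3 (interval -1.29 to -0.07, adjusted p = 1.00) and -0.41 for Ddit3 (interval -1.21 to 0.39, adjusted p = 1.00, computed from the authors' p-values), so a difference between genotypes was not detected. The 48 h DMSO group of WT-cKO enters both this comparison and the one between times of DMSO. Within the same libraries the 10 chaperone genes had medians of -0.11 in both genotypes, as given above.

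**Figure D4:**
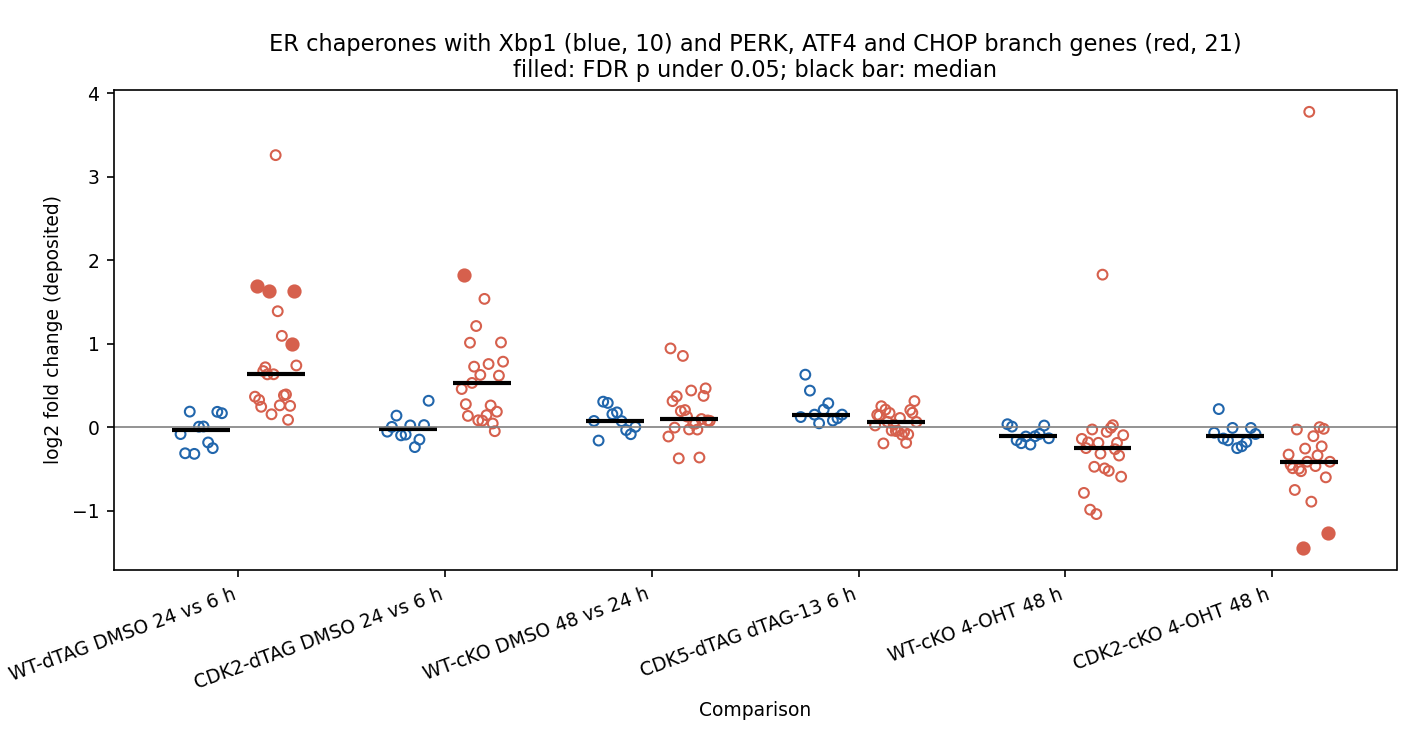
Log2 fold change of the 10 ER chaperone genes with Xbp1 (blue) and of 21 PERK, ATF4 and CHOP branch genes (red) in 6 comparisons, with filled points for FDR p under 0.05 and black bars for medians. The red medians run from 0.64 in WT-dTAG DMSO to -0.41 in CDK2-cKO at 48 h, while the blue medians stay between -0.11 and 0.15 and no blue point is filled.

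The other genes of protein folding and export gave no calls. Across 9 lists of 160 genes, all with values, calls were made only among the PERK branch. In CDK5-dTAG organoids at 6 h, the other ER chaperones and cofactors had 15 of 21 genes above 0 with a median of 0.05, and 0 called. Their smallest p in the authors' deposited table belonged to Fkbp7, a peptidyl-prolyl isomerase, at 4.32 (interval -0.60 to 9.24), which was hardly measured, then Sdf2 at -0.37 and Hspa13 at 0.37. ER-associated degradation had 13 of 21 above 0 with a median of 0.06, led by Syvn1, the ubiquitin ligase HRD1, at 0.45 (p = 0.0928) in the authors' deposited table. The translocon and signal peptidase had 13 of 22 above 0 with a median of 0.03. Its channel subunit Sec61a1 was listed at 0.30 (p = 0.0443, FDR p = 1.00) in the authors' deposited table. ER to Golgi transport had 13 of 19 above 0 with a median of 0.09, N-glycosylation 11 of 14 with 0.03, and disulfide isomerases and oxidases 9 of 17 with 0.01. The stress sensors and transducers had 7 of 11 above 0 with 0.03, the PERK branch 13 of 21 with 0.06, and cytosolic heat shock genes 7 of 14 with 0.01. The median of the 10 chaperone genes, 0.15, was above each of these 9 medians in this comparison, the one where their median was highest.

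At 24 h in CDK5-dTAG organoids the other ER chaperones had 12 of 21 genes above 0 with a median of 0.07, with Manf, a secreted factor that binds BiP, at 0.56 (p = 0.00650, FDR p = 1.00) in the authors' deposited table. In the translocon list Spcs3, a signal peptidase subunit, was listed at 0.75 (p = 0.00586, FDR p = 1.00), and in the degradation list Man1b1, a mannosidase, at -0.60 (p = 0.00544, FDR p = 1.00), in the authors' deposited table. These lists had medians of 0.04 and 0.01. The stress sensors and transducers had 8 of 11 above 0 with a median of 0.13, above the 0.10 of the 10 chaperone genes. In CDK2-cKO organoids at 48 h the medians were -0.05 for other ER chaperones (7 of 21 above 0), -0.08 for ER-associated degradation (4 of 21), -0.08 for the translocon (9 of 22) and -0.08 for ER to Golgi transport (5 of 19). In WT-cKO organoids at 48 h the same lists stood at -0.04, -0.09, -0.05 and -0.14. Of the other lists in CDK2-cKO at 48 h, P4hb, the main protein disulfide isomerase, and Ero1l, the oxidase that recharges it, were listed in the authors' deposited table at -0.37 (p = 0.0383) and -0.63 (p = 0.0388), both at FDR p = 0.996. In WT-cKO at 48 h the authors' deposited table listed P4hb at -0.27 (p = 0.115) and Ero1l at -0.50 (p = 0.0990), both at FDR p = 0.997.

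Markers of the cell types that organoids can hold are given beside these comparisons, and their part in the results was not tested. In bulk RNA, fewer cells of a type and less RNA per cell cannot be told apart. No marker gene was called. In CDK5-dTAG organoids at 6 h the medians were -0.06 for goblet cell markers (2 of 12 above 0), -0.11 for Paneth cell markers (2 of 11), -0.15 for stem cell markers (0 of 11) and 0.05 for enterocyte markers (11 of 15). Enteroendocrine markers stood at 0.08 (9 of 12). In CDK2-dTAG organoids at 24 h stem cell markers stood at 0.37 (11 of 11) and enterocyte markers at -0.07 (4 of 15). Paneth stood there at 0.16 (9 of 11), goblet at 0.11 (7 of 12) and enteroendocrine markers at 0.16 (10 of 12). With 4-OHT at 48 h the medians were -0.48 for enterocyte markers (2 of 15 above 0), 0.34 for Paneth (11 of 11), 0.47 for stem (10 of 11), 0.16 for goblet (10 of 12) and 0.45 for enteroendocrine markers (11 of 12) in CDK2-cKO organoids. In WT-cKO organoids they were -0.89 for enterocyte (2 of 15), 0.10 for Paneth (7 of 11), 0.15 for stem (10 of 11), 0.27 for goblet (9 of 12) and 0.34 for enteroendocrine markers (11 of 12). In WT-cKO DMSO at 48 against 24 h they were 0.56 for enterocyte (14 of 15) and 0.75 for Paneth markers (9 of 11). Stem cell markers stood there at 0.13 (9 of 11), goblet at 0.03 (8 of 12) and enteroendocrine markers at 0.11 (8 of 12). In WT-dTAG DMSO at 24 against 6 h stem cell markers had a median of -0.32 (2 of 11) and enterocyte markers 0.01 (8 of 15). Paneth markers stood there at -0.22 (3 of 11), goblet at 0.17 (8 of 12) and enteroendocrine markers at 0.25 (8 of 12). The tissue label was met by goblet markers, of which 11 of 12 were well measured, enterocyte markers (12 of 15), stem cell markers (10 of 11) and Paneth markers (7 of 11). Enteroendocrine markers had 9 of 12 well measured. Among markers with values, tuft cell and fibroblast markers had 0 of 6 well measured each, immune markers 1 of 6 and endothelial markers 1 of 5. The lists held 8 tuft cell, 7 fibroblast and 7 immune markers, so some of these had no values.

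Across the 10 treatment comparisons the profiles of the 10 genes were mostly alike in direction. Between pairs of them, Pearson's r of the log2 fold changes was above 0 for 41 of 45 pairs, with a median of 0.33, beside a median of 0.00 over all pairs of well measured genes. The closest pairs were Xbp1 with Hsp90b1 (r = 0.82), Pdia4 with Calr (0.78) and Hspa5 with Dnajb9 (0.75), and the most opposed was Calr with Hsp90b1 (-0.39). Hspa5 followed the mean of the other 9 most closely (0.74), then Herpud1 (0.65) and Dnajb9 (0.64), and Pdia4 followed it least (0.22). The pairs were not recomputed without CDK5-dTAG at 6 h, where all 10 genes stood above 0, so their likeness may rest on that comparison. Genes within a comparison share libraries and depth, and r rests on 10 points, so these values are descriptive.

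**Figure D5:**
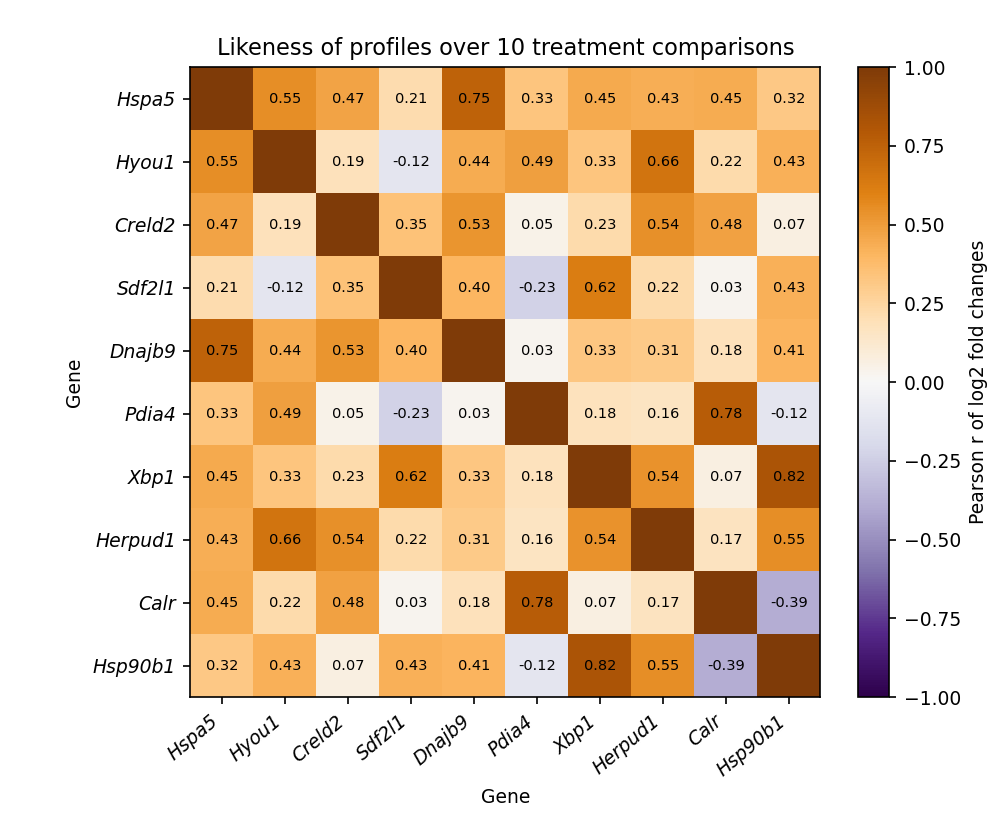
Pearson's r between the log2 fold changes of each pair of the 10 genes over the 10 treatment comparisons, with rows and columns by gene and colour from -1 to 1. Of the 45 pairs 41 are above 0, with Xbp1 and Hsp90b1 at 0.82 and Calr and Hsp90b1 at -0.39.

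The mean profile of the 10 genes was highest in CDK5-dTAG organoids at 6 h (0.22), then at 24 h (0.09), and lowest in WT-cKO and CDK2-cKO organoids at 48 h (both -0.09). Outside the group, the well measured genes whose profile was most like it were Ctsl, a lysosomal protease (r = 0.94), Mvd, an enzyme of sterol synthesis (0.91), Hs3st1, a heparan sulfate sulfotransferase (0.91), Cradd, an adaptor with a death domain (0.88), Fibp, which binds acidic fibroblast growth factor (0.88), Snrpn (0.87), Gtpbp6 (0.87) and Serp1, an ER membrane protein induced by stress (0.86). Serp1 alone among them was on a list of ER genes. When 1 comparison was left out, r fell at most to 0.69 for Fibp, 0.70 for Mvd and 0.71 for Gtpbp6, each without CDK5-dTAG at 6 h, while Ctsl kept 0.91. These 8 were the highest of 9526 genes in this likeness, which says nothing of shared function or control.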

How the data were processed

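RNA was prepared with the QuantSeq 3′ mRNA-seq kit (FWD), per the labels. Salmon, without a version, is named in the submitters' processing notes. Build, aligner, annotation, scaling and test are not given in the sources used. The authors' deposited table holds 13 comparisons, and per the file headers each gives per gene a log2 fold change, the same as a linear ratio, and the p-value unadjusted, FDR-adjusted and Bonferroni-adjusted. Missing values are written as text there, so the columns were recorded under a general unit. The deposited FDR p-values equal a Benjamini-Hochberg adjustment over the genes tested in each comparison. The table listed 41018 symbols, of which 24905 had values in every comparison and 24907 in 2 of them. Depth per sample is unknown.

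The SE was |log2 fold change| over the standard normal deviate of the two-sided p-value, as a Wald-type test would give, which no source states. Differences between genotypes and times combined SEs as independent, with two-sided normal p-values adjusted by Benjamini-Hochberg over 24905 genes. That step was run on data simulated with the same normal formula. Such a run checks the computation only, and cannot check the assumed test or the independence of the SEs. Genes were called at an adjusted p under 0.05. Python 3.11.15, numpy 2.4.6, scipy 1.17.1, pandas 2.3.3 and matplotlib 3.10.9 were used. Positions are from GENCODE M21 on GRCm38, which held 95.9% of symbols.

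The 10 genes and the lists were chosen with earlier results of these data known. Named besides them were up to 3 genes with the smallest p per list in comparisons described singly, the 8 genes most alike in profile, and the targeted kinases. Alternatives tried were other p-value limits, genes adjusted over, quantiles, centring and summaries.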

Additional observations from a re-analysis of the deposited data

How the results depend on the processing

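Counts of calls among the 10 genes were 0 in the treatment comparisons, the DMSO comparisons and the differences under Bonferroni adjustment, adjustment over well measured genes (SE limits of 0.5 and 1), t quantiles and centring, wherever each applied. With an unadjusted p under 0.05 the count became 1 in the treatment comparisons (Creld2, CDK5-dTAG at 6 h), 1 in the DMSO comparisons (Herpud1, WT-dTAG) and 1 in the genotype differences (Creld2, CDK5-dTAG minus WT-dTAG at 6 h). The 7 calls in the pathway lists became 4 under Bonferroni adjustment, which Atf3 in both DMSO comparisons and Stc2 missed, and 89 with an unadjusted p under 0.05. Both settings for the lists were chosen after seeing the data. On well measured genes alone the lowest adjusted p of any of the 10 genes was 0.727. Centring shifted log2 fold changes by -0.02 to 0.01 and turned the sign of 6 uncalled values, of at most 0.01 in size. Medians over the 10 genes moved by at most 0.08 when a gene was left out, when Xbp1 and Herpud1 were left out or with inverse-variance weights, less than the SE of a single gene. Even so, 5 of the 13 medians, all between -0.04 and 0.04, changed sign under at least 1 of these settings or centring, so their direction is not settled. They were WT-dTAG at 6 h (up to 0.02), CDK2-dTAG at 6 h (down to -0.05), WT-cKO at 24 h (up to 0.01) and DMSO over time in WT-dTAG (up to 0.01) and CDK2-dTAG (up to 0.00). All other medians kept their sign under each of them. These were CDK5-dTAG at both times, both knockout-arm genotypes at 48 h, WT-dTAG, CDK2-dTAG and CDK2-cKO at 24 h, and WT-cKO DMSO over time.

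No paired analysis was possible because the deposited table holds comparisons and no values per sample, and replicates could not be left out for the same reason. Intervals rest on an SE read from p-values. Precision limits Dnajb9, Sdf2l1 and Creld2 most, whose SE was the largest of the 10 genes. Library depth, which sets it in part, is unknown.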
